A study of Mus musculus with 38 samples.

Results

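Genes that make, take up, move and export cholesterol were followed across 13 sorted populations of monocytes, macrophages and dendritic cells (DCs) from mouse blood, ear skin and skin-draining lymph node. Of 30 genes chosen by name for their place in cholesterol handling, 28 were measured out of 19937 genes in all. They are 17 of 18 synthesis enzymes, all 5 regulators of the SREBP transcription factors, 4 of 5 efflux genes and genes of the liver X receptor (LXR), and 2 of 2 genes of sterol transport within the cell. Acat2 and Nr1h2 were not analysed here, since no probe set listed either as its only gene. Every cell came from wild-type female C57BL/6 mice aged 6 weeks, and each population has 3 arrays from separate pools of mice, apart from dermal P1 after DNFB with 2. DNFB (dinitrofluorobenzene) is a contact sensitizer, of which 10 µl at 0.5% in acetone and olive oil was put on the ear, with harvest 3 days later.

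Of lymph node populations, the CD64+ Ly6C+ cells were sorted after DNFB alone, and the CD11c+ MHCIIhi CD11b+ CD24- Ly6C- CD64- DCs, labelled as dermal DCs that had migrated, after DNFB and in the steady state. Labels of the CD64+ cells disagree: the titles call them migratory non-DCs, the cell type field gives a migratory dermal monocyte, and the description gives a migratory dermal DC. They are called lymph node CD64+ cells here. The dermal macrophages, both CD64+ Ly6C- CCR2-, are P5 (MHCII+) and P4 (MHCII-), steady state only. Dermal DCs, CD11b+ CD24- Ly6C- CD64- MHCII+, were taken after DNFB and in the steady state. The dermal monocyte-derived stages are P3 (CD64+ Ly6Clow CCR2+ MHCII+, steady state), P2 (CD64+ Ly6Chi CCR2+ MHCII+, DNFB and steady state) and P1 (CD64low Ly6Chi CCR2+ MHCII-, DNFB and steady state). Blood monocytes, Ly6Chi CD11b+, were taken in the steady state. Each array is a pool of sorted cells, so a lower level in fewer cells of a mixture and less RNA per cell cannot be told apart. Skin was digested with dispase and collagenase 4 and lymph node with collagenase 2, on different gradients. Tissue, digestion and gate therefore cannot be told apart in any lymph node against skin comparison. Blood and skin populations differ in tissue and gate too, which cannot be told apart either.

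Cells build cholesterol from acetyl-CoA through the mevalonate pathway. Hmgcs1, Mvk, Pmvk, Mvd and Idi1 lead to isoprenoid units, and Fdps and Fdft1 join them to squalene. Sqle adds an oxygen to squalene and Lss closes the rings. Cyp51, Tm7sf2, Msmo1, Nsdhl, Hsd17b7, Ebp, Sc5d and Dhcr7 turn lanosterol into cholesterol. When sterol in the endoplasmic reticulum is low, Scap escorts the SREBP proteins (Srebf1, Srebf2) to the Golgi, where they are cut and go on to induce the synthesis genes, while Insig1 and Insig2 hold them back. When oxysterols build up, LXR (Nr1h3 encodes LXR alpha) induces the exporters Abca1 and Abcg1 and the ubiquitin ligase Mylip, which limits lipoprotein uptake, and macrophages that clear dying cells are known for this export. Npc1 carries cholesterol out of the lysosome, and Stard4 moves it between membranes.

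The promoters of 4 synthesis and efflux genes whose values are given for every array below, and of Nr1h3, are shown so that the values below can be read beside the regulatory sequence. They are the 250 bases upstream of the RefSeq start site (GRCm38.p6), read 5′ to 3′ along the gene, with motif matches in capitals. RefSeq windows of 250 bases before to 50 after the start were found for 24 of 30 genes. For Nr1h3 the first of its windows is printed.
Idi1 promoter, chr13:8885356-8885605, plus strand: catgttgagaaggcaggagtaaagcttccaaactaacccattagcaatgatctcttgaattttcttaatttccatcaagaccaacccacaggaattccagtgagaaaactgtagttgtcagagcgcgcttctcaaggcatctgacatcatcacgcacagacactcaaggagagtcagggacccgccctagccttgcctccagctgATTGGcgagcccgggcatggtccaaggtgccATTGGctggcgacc
Hmgcs1 promoter, chr13:119690101-119690350, plus strand: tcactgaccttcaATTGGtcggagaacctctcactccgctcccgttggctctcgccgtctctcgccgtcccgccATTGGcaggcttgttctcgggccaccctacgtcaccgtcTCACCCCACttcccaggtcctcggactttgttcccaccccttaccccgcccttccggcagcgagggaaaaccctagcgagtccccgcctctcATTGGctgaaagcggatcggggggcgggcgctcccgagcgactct
Cyp51 promoter, chr5:4104698-4104947, minus strand: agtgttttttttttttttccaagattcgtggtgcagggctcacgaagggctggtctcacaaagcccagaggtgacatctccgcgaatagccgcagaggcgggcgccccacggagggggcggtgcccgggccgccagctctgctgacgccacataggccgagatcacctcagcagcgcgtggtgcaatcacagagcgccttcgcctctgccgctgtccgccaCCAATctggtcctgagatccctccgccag
Abca1 promoter, chr4:53159896-53160145, minus strand: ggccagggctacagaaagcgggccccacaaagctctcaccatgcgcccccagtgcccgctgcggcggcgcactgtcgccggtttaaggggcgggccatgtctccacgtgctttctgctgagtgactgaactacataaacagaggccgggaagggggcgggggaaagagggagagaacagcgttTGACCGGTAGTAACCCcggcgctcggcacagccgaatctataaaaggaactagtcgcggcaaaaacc
Nr1h3 promoter, chr2:91195117-91195366, minus strand: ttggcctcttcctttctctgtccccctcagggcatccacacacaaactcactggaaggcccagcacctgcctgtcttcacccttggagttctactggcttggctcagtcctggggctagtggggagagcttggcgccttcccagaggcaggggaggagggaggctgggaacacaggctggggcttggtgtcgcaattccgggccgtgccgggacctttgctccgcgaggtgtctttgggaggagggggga
The letters searched, on both strands, were TCACNCCAC for a sterol regulatory element and CCAAT for the NF-Y box, which reads ATTGG on the other strand, together with the DR4 form of the LXR direct repeat. No matches of different motifs overlapped in these genes. Hmgcs1 was the 1 gene of 24 with the sterol element form (TCACCCCAC, 137 bases upstream), in 1 of their 33 windows, against 1.24% of 32851 promoters. The NF-Y box lay in 20 of the 33 windows, which belong to 19 of the 24 genes, against 37.4% of all promoters, and each of the 14 measured synthesis genes that have a window held it. Abca1 held the LXR direct repeat form 67 bases upstream and Srebf1 held it 182 bases upstream, in 2 of the 33 windows, against 0.718% of all promoters. These matches describe letters in a short window.

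Values are log2 signals per gene as deposited, so a difference of 1 is a doubling, and levels are compared between populations within a gene, never between genes. Array medians lay between 4.39 and 4.65, and genes near them, such as Lss at 4.26 to 4.70 in every dermal population, are close to background. A gene is called where its moderated limma test has a Benjamini-Hochberg adjusted p, over all 19937 genes, below 0.05. Replicate arrays correlated at 0.931 to 0.986. In several populations transcripts of the sort marker genes went against the labels. The labels name surface protein and the arrays read RNA, so these values did not test the gates. Itgam, which encodes CD11b, was 4.25 to 5.07 and 4.50 to 4.71 in lymph node DCs labelled CD11b+ (DNFB and steady state), near the array medians, against 8.11 to 11.0 on all other arrays. Cd24a was 8.31 to 9.98 on all arrays of the DCs labelled CD24-, and Fcgr1, which encodes CD64, was 7.71 to 8.26 in DNFB dermal DCs labelled CD64-, against 5.64 to 6.20 in steady-state dermal DCs. In DNFB P1, labelled CD64low, Fcgr1 was 10.2 to 10.4, the highest of all populations. Ccr2 was 8.73 to 9.58 in P5 and 7.60 to 8.62 in P4, both labelled CCR2-, against 3.58 to 4.92 in lymph node DCs and 10.1 to 11.1 in P1, P2, P3 and blood monocytes. The lymph node DCs labelled CD11b+ are called lymph node DCs below. The lymph node CD64+ cells also carried DC genes: Flt3 averaged 9.60 in CD64+ cells and 10.48 in DNFB lymph node DCs, Ccr7 averaged 10.92 in CD64+ cells and 11.41 in DNFB lymph node DCs, and Dpp4 averaged 9.63 in CD64+ cells and 10.36 in DNFB lymph node DCs.

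The mean of the 17 synthesis enzymes put array 3 of the lymph node CD64+ cells apart. The mean was 6.60 on that array, against 7.35 and 7.47 on arrays 1 and 2. The main results of that population are given with and without array 3. Since this low mean picked the array, higher synthesis levels without it were built in. Every DC marker measured averaged higher without array 3, as in Flt3 (10.13, against 9.60 with it) and Ccr7 (11.39, against 10.92). Every macrophage marker averaged lower, as in Fcgr1 (7.71, against 8.23). The part of these markers was not tested. Keratinocyte and fibroblast genes were high in the skin populations. The mean of 14 keratinocyte genes was 4.53 to 4.90 on lymph node arrays, 5.42 to 8.24 on dermal arrays and 4.41 to 4.61 on blood arrays. The mean of 12 fibroblast genes was 4.46 to 4.93 on lymph node arrays, 4.86 to 10.2 on dermal arrays and 4.33 to 4.41 on blood arrays, the highest on array 2 of steady-state P1.

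Over the 13 populations together, 23 of 28 cholesterol genes varied (limma F test), 15 of them synthesis enzymes, against 40.1% of all genes. The synthesis enzymes Ebp and Dhcr7, the regulators Srebf1 and Insig2, and Stard4 did not pass. Idi1, on the brighter of its probe sets, had the widest range of population means, 10.04 in DNFB lymph node DCs and 5.52 in P5. Its other probe set averaged 7.84 and 5.90 in these populations. Nr1h3 spanned 9.43 in lymph node CD64+ cells and 4.95 in DNFB dermal DCs, and Abca1 spanned 9.36 in P5 and 4.88 in DNFB lymph node DCs. Of 17 synthesis enzymes, 15 had their highest mean in lymph node DCs of either condition, against 31.9% of all genes, and in 10 of 17 the 3 lymph node populations held the top 3 places, against 8.63% of all genes. Abcg1, Nr1h3 and Stard4 shared that order of lymph node over skin and blood, while Abca1, Npc1 and Mylip were highest in dermal macrophages.

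**Figure D1:**
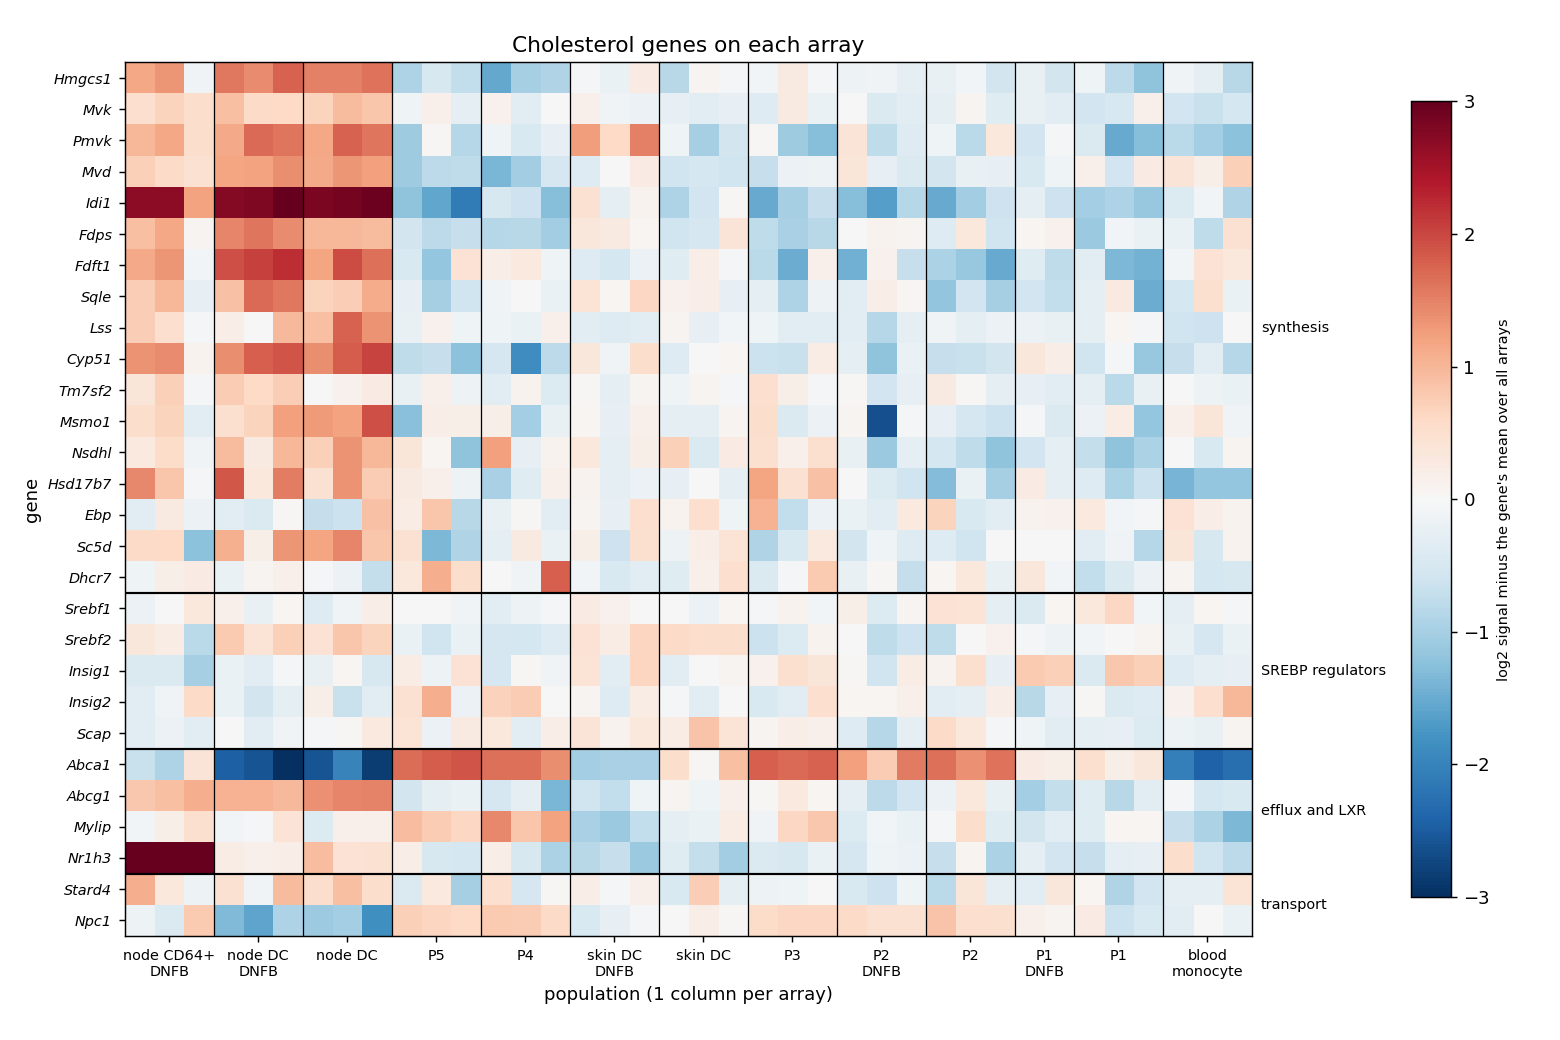
Heat map of 28 cholesterol genes (rows, by role) on 38 arrays (columns, by population), coloured by log2 signal minus the gene's mean over all arrays. Red blocks in the synthesis rows lie over the lymph node populations at the left, where Abca1 and Npc1 are blue in lymph node DCs and array 3 of lymph node CD64+ cells is paler than its partners.

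The first comparison sets lymph node DCs against dermal DCs, which the labels treat as 1 cell type in the node and in the skin. In the steady state, lymph node DCs had more transcript of most of the synthesis pathway and of Abcg1 and Nr1h3, and less of Abca1 and Npc1. Of 28 cholesterol genes 15 were called, against 20.3% of all genes. Of these, 13 were higher and 2 were lower, against 10.1% of all genes called higher and 10.1% called lower. Among 17 synthesis enzymes 11 were higher and 0 lower. The median difference of the enzymes was 1.22 on the log2 scale, against 0.05 for all genes.

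Idi1, which isomerises isopentenyl diphosphate, had log2 signals of 9.96, 10.02 and 10.08 in lymph node DCs, against 6.21, 6.57 and 7.17 in dermal DCs. All 3 lymph node arrays stood far above the dermal ones and close together. The difference was 3.37 ± 0.33 on the log2 scale (SE), or 10.4-fold, with a limma adjusted p of 3.9e-09. The array lists Idi1 under a second probe set, which averaged 7.66 in lymph node DCs and 5.77 in dermal DCs; which genomic copies each probe set reads was not examined. Fdft1, squalene synthase, had 8.93, 9.70 and 9.40 in lymph node DCs, against 7.37, 7.95 and 7.70 in dermal DCs. The groups did not overlap, and the difference was 1.67 ± 0.41 (limma adjusted p = 0.0028). These values are from the brighter of 2 Fdft1 probe sets, and the other averaged 8.68 in lymph node DCs and 6.33 in dermal DCs. Cyp51, which removes a methyl group from lanosterol, had 8.78, 9.22 and 9.41 in lymph node DCs, against 6.99, 7.40 and 7.45 in dermal DCs. Again the groups were apart, by 1.85 ± 0.34 (adjusted p = 0.00014). Hmgcs1, which makes HMG-CoA at the head of the pathway, had 8.90, 8.92 and 9.03 in lymph node DCs, against 6.57, 7.49 and 7.34 in dermal DCs. Its lymph node arrays lay above every dermal array, by 1.82 ± 0.29 on average (adjusted p = 1.5e-05).

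**Figure D2:**
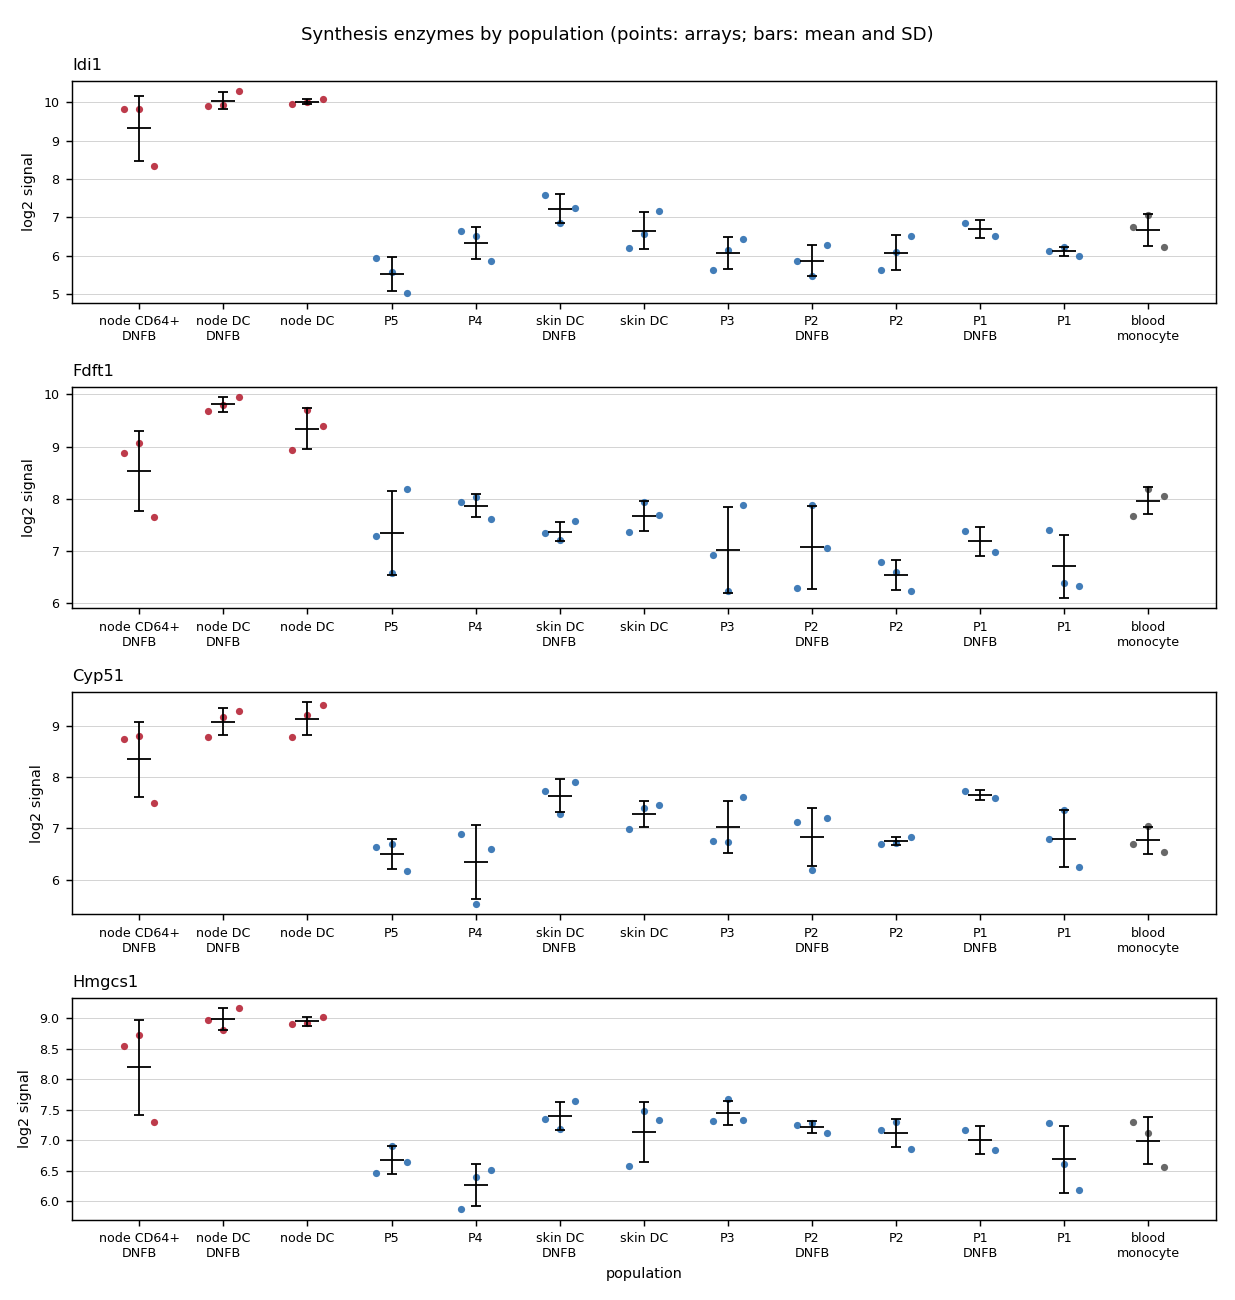
Log2 signal of Idi1, Fdft1, Cyp51 and Hmgcs1 (panels, top to bottom) on each array (points) by population, with mean and SD as black bars; red is lymph node, blue skin and grey blood. The lymph node DCs have the highest means in all panels, and array 3 of the lymph node CD64+ cells lies below its partners, at 8.34 for Idi1 and 7.30 for Hmgcs1.

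The enzymes called beside these covered each stretch of the pathway. Early steps were Pmvk (2.08 ± 0.36), Mvd (1.80 ± 0.22), Fdps (1.22 ± 0.28) and Mvk (1.08 ± 0.18, all log2 differences with SE). Late steps were Msmo1 (1.62 ± 0.49), Lss (1.42 ± 0.22) and Hsd17b7 (1.03 ± 0.35). Hsd17b7 lost its call without lymph node array 2 or 3 or any dermal array (adjusted p = 0.052 to 0.19), and Msmo1 without lymph node array 3 or dermal array 1 or 2 (adjusted p = 0.053 to 0.089). Sqle (0.81 ± 0.34, adjusted p = 0.099), Nsdhl (0.86 ± 0.36, adjusted p = 0.099) and Sc5d (1.01 ± 0.42, adjusted p = 0.10) were above dermal DCs on all arrays without passing the test. Tm7sf2, Ebp and Dhcr7 differed by 0.16, -0.31 and -0.41, with overlapping arrays.

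The exporters went opposite ways. Abca1, which loads cholesterol onto lipid-poor apolipoprotein, had 4.96, 5.54 and 4.72 in lymph node DCs, against 8.07, 7.58 and 8.45 in dermal DCs. Every lymph node array was over 2 log2 units below every dermal array and within 1 log2 unit of the highest array median, and the difference was -2.96 ± 0.25, 7.81-fold lower (adjusted p = 1.2e-10). Abcg1, which passes cholesterol to mature lipoprotein particles, had 9.54, 9.64 and 9.65 in lymph node DCs, against 8.24, 8.03 and 8.33 in dermal DCs. Abcg1 was thus higher on each lymph node array, by 1.41 ± 0.21 (adjusted p = 5.4e-06). Nr1h3 had 6.74, 6.26 and 6.27 in lymph node DCs, against 5.45, 5.09 and 4.78 in dermal DCs. The groups were apart, by 1.31 ± 0.30 (adjusted p = 0.0015). Npc1 was lower by 1.39 on the log2 scale (-1.39 ± 0.24, adjusted p = 4.1e-05), and Mylip and Stard4 differed by 0.06 and 0.65 without passing.

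None of the 5 SREBP regulators was called in this comparison or in the same comparison after DNFB, by limma; at an unadjusted p under 0.05 there was 1 in each. Srebf2, the SREBP most tied to synthesis genes, had 9.07, 9.46 and 9.30 in steady-state lymph node DCs, against 9.21, 9.16 and 9.17 in dermal DCs. The arrays overlapped and the difference was 0.10 ± 0.24. Insig1, itself an SREBP target in most cells, had 8.56, 8.85 and 8.31 in lymph node DCs, against 8.45, 8.78 and 8.87 in dermal DCs. Its arrays overlapped too (-0.13 ± 0.27). Insig2 had 5.56, 4.72 and 5.05 in lymph node DCs, against 5.33, 5.07 and 5.38 in dermal DCs, a difference of -0.15 ± 0.30. SREBP activity is set by cleavage of the protein, which arrays do not measure.

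After DNFB the lymph node DCs differed from dermal DCs in much the same genes. Of 28 genes 16 were called, against 17.5% of all genes, 14 of them higher (8.44% of all genes) and 2 lower (9.04% of all genes). Of the 13 called higher in the steady state and the 14 after DNFB, 11 were shared, and Abca1 and Npc1 were the 2 lower in both. The comparisons use separate arrays of the same labelled cell types. Among the synthesis enzymes 11 of 17 were higher and 0 lower, with a median difference of 0.84 on the log2 scale, against 0.04 for all genes.

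Idi1 had 9.90, 9.94 and 10.30 in DNFB lymph node DCs, against 7.60, 6.85 and 7.24 in DNFB dermal DCs. The groups lay apart, by 2.82 ± 0.33 (adjusted p = 1.4e-07). The second Idi1 probe set averaged 7.84 in DNFB lymph node DCs and 6.09 in DNFB dermal DCs. Fdft1 had 9.68, 9.80 and 9.95 in lymph node DCs, against 7.35, 7.20 and 7.57 in dermal DCs. This was the second largest enzyme difference after DNFB, 2.44 ± 0.41 (limma adjusted p = 3.7e-05). The second Fdft1 probe set averaged 8.97 in DNFB lymph node DCs and 6.59 in DNFB dermal DCs. Cyp51 had 8.78, 9.17 and 9.28 in lymph node DCs, against 7.72, 7.28 and 7.91 in dermal DCs. Hmgcs1 had 8.97, 8.81 and 9.17 in lymph node DCs, against 7.35, 7.19 and 7.64 in dermal DCs. Neither overlapped, and the differences were 1.44 ± 0.34 for Cyp51 (adjusted p = 0.0025) and 1.59 ± 0.29 for Hmgcs1 (adjusted p = 0.00011). Hsd17b7 (1.35), Mvd (1.30), Fdps (1.26), Sqle (1.02), Tm7sf2 (0.76), Mvk (0.73) and Lss (0.73) were also higher. Sqle lost its call without lymph node array 2 or 3 or dermal array 1 or 2 (adjusted p = 0.077 to 0.16). Lss lost it without lymph node array 3 or dermal array 2 (adjusted p = 0.20 and 0.055), and Hsd17b7 without lymph node array 1 (adjusted p = 0.069). Pmvk, called in the steady state, differed by 0.36 ± 0.36 after DNFB with overlapping arrays.

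Abca1 had 5.11, 4.97 and 4.56 in DNFB lymph node DCs, against 6.55, 6.58 and 6.58 in DNFB dermal DCs. The lymph node arrays were all lower, by 1.69 on the log2 scale (-1.69 ± 0.25, adjusted p = 4.6e-06). Abcg1 had 9.20, 9.20 and 9.15 in lymph node DCs, against 7.56, 7.43 and 8.03 in dermal DCs, a difference of 1.51 ± 0.21 (adjusted p = 2.1e-06). Nr1h3 had 6.04, 5.97 and 6.01 in lymph node DCs, against 4.99, 5.14 and 4.72 in dermal DCs. All Nr1h3 arrays of the node were higher, by 1.06 ± 0.30 (adjusted p = 0.011), although without dermal array 3 the adjusted p was 0.066. Mylip was higher by 1.04 ± 0.24 (adjusted p = 0.0016) and Npc1 was lower (-1.04 ± 0.24, adjusted p = 0.0015).

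**Figure D3:**
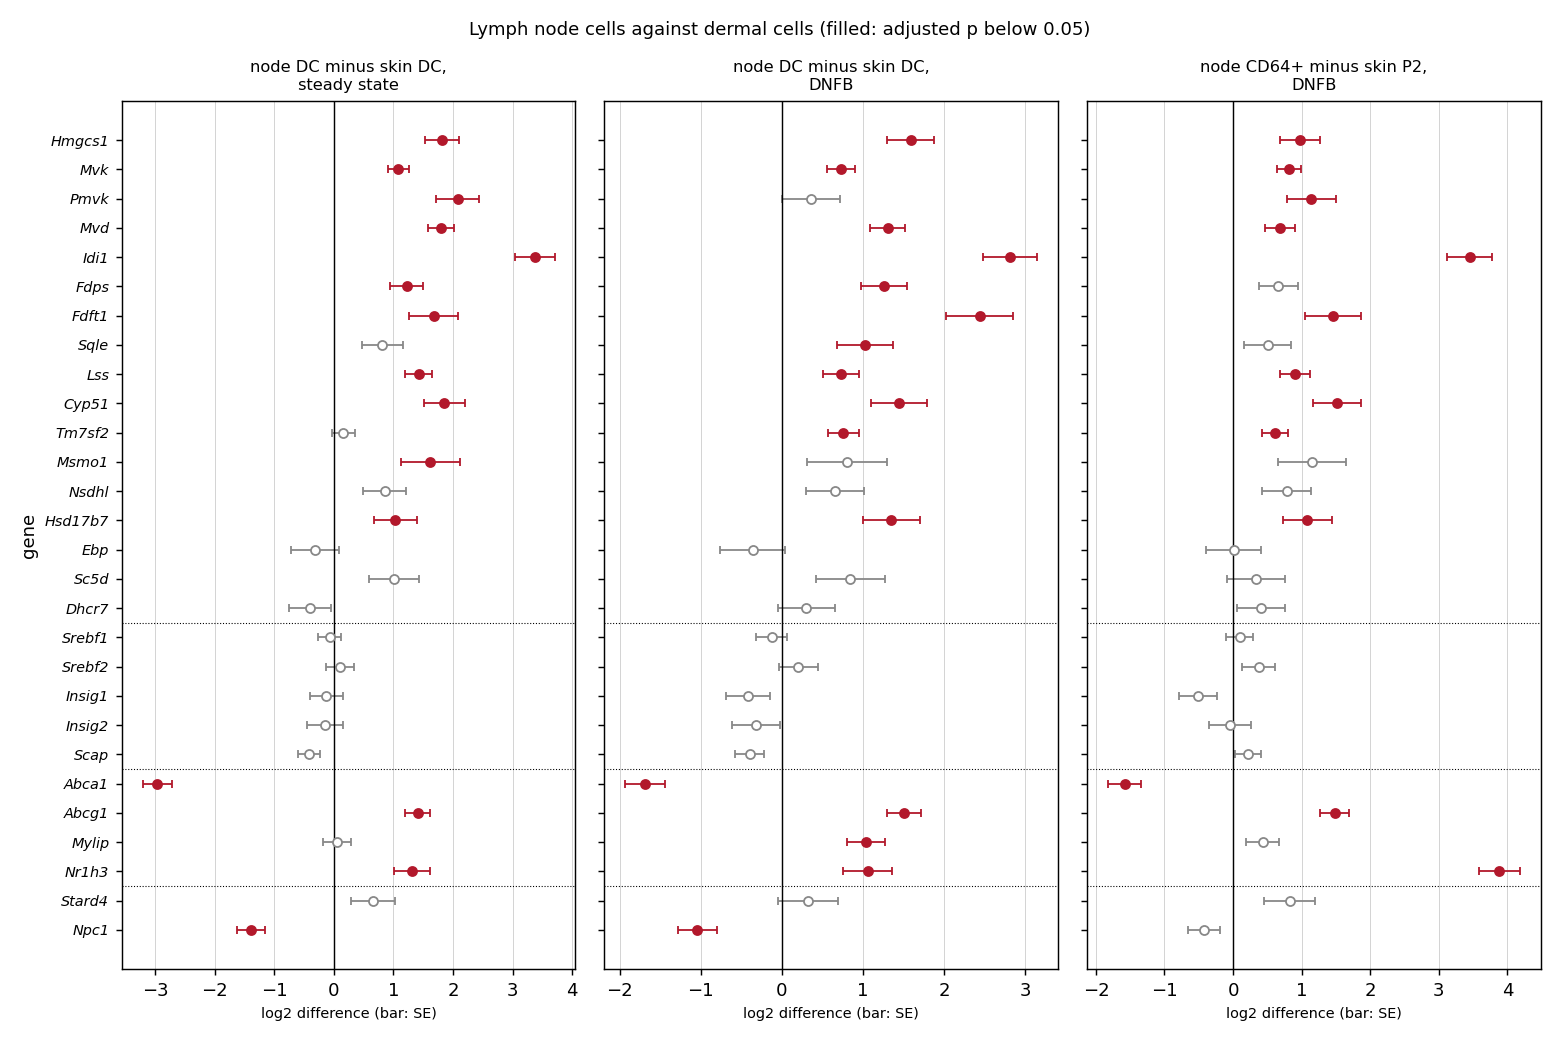
Log2 difference of each of 28 genes (points, bars show SE) for lymph node DCs minus dermal DCs in the steady state (left) and after DNFB (middle), and for lymph node CD64+ cells minus dermal P2 after DNFB (right); filled points passed the limma test. Synthesis enzymes lie mainly right of 0 in all panels, the 5 SREBP regulators lie near 0 with open points, and Abca1 lies left of 0.

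Other markers moved with these results. In the steady state 11 of 14 keratinocyte genes and 2 of 12 fibroblast genes were lower in lymph node DCs, and after DNFB 6 of 14 and 2 of 12 were. The keratinocyte mean ranged over 4.66 to 4.90 in steady-state lymph node DCs and 6.60 to 7.23 in dermal DCs, and over 4.60 to 4.83 in DNFB lymph node DCs and 5.42 to 6.22 in DNFB dermal DCs. With both marker means as covariates in the limma fit, 11 cholesterol genes were called in the steady state (9 higher, 2 lower) and 13 after DNFB (11 higher, 2 lower). The share of all genes called in that fit was not worked out, so these counts cannot be set against it. Calls lost in the steady state were Fdft1 (1.36, adjusted p = 0.16), Nr1h3 (1.22, adjusted p = 0.082), Hsd17b7 (adjusted p = 0.13) and Msmo1 (adjusted p = 0.090). After DNFB they were Nr1h3 (adjusted p = 0.063), Lss (adjusted p = 0.056) and Sqle (adjusted p = 0.12). Of 19 cell cycle genes, 12 were lower in lymph node DCs in the steady state, and 8 were lower and 1 higher after DNFB. Of 6 macrophage markers, 5 were lower in lymph node DCs in both conditions, with medians of -2.88 in the steady state and -2.91 after DNFB. The mean of these markers was 5.49 to 5.71 in steady-state lymph node DCs and 7.98 to 8.34 in dermal DCs, and 5.34 to 5.60 in DNFB lymph node DCs and 7.84 to 8.20 in DNFB dermal DCs. In lymph node DCs of both conditions Mertk, Fcgr1 and C5ar1 averaged 3.52 to 4.76, near the array medians. Of 6 monocyte markers, 2 were lower in the steady state and 4 after DNFB. Of 7 DC markers, 4 were higher and 1 lower in the steady state, and 2 were higher and 2 lower after DNFB. The part of these lists in the results, among them the low Abca1 and Npc1 and the lipid genes below, was not tested.

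**Figure D4:**
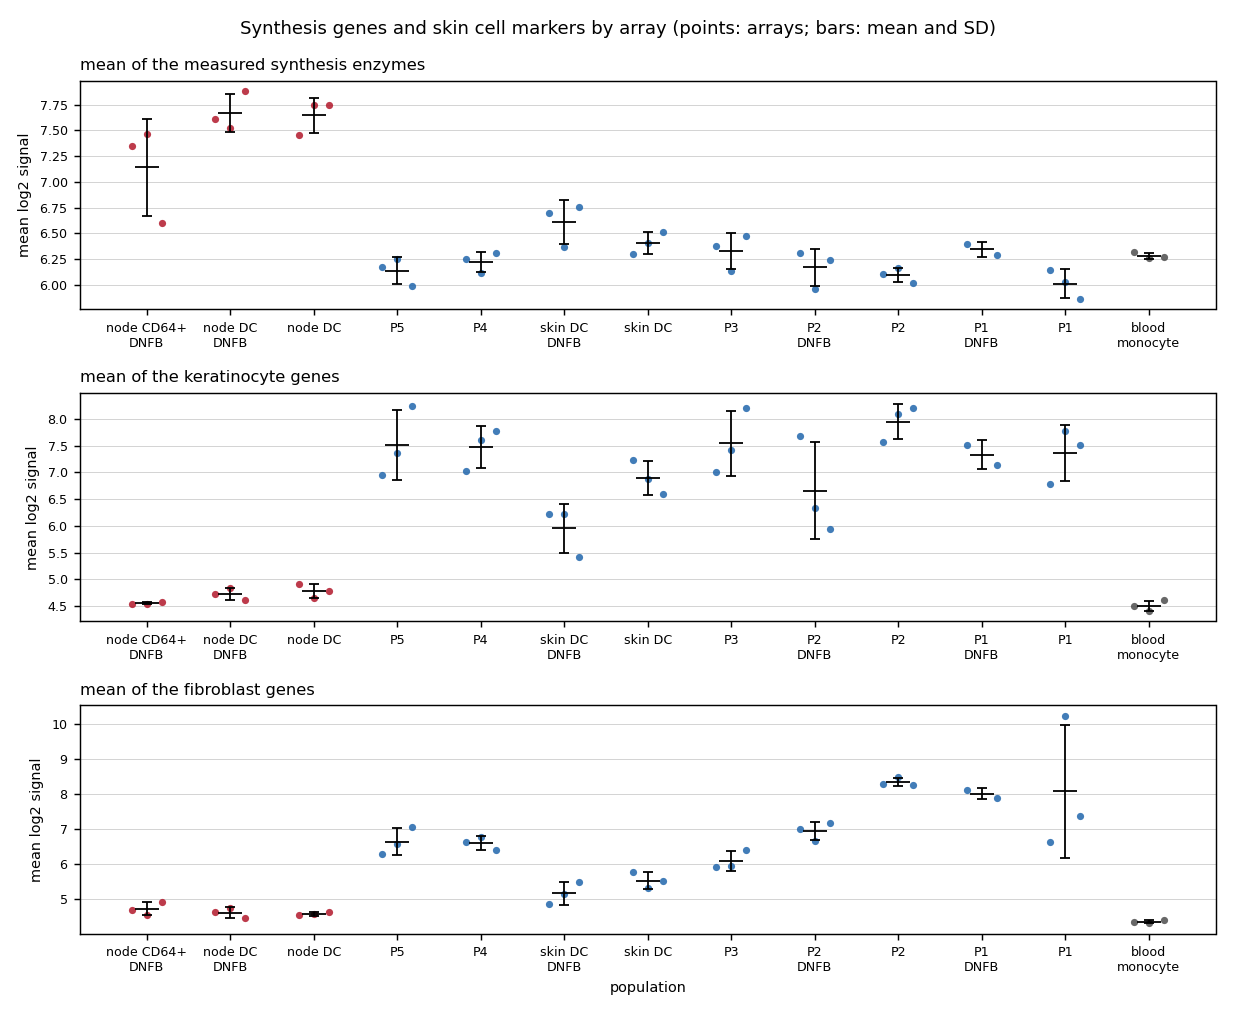
Mean log2 signal of the 17 synthesis enzymes (top), 14 keratinocyte genes (middle) and 12 fibroblast genes (bottom) on each array (points) by population, with mean and SD as black bars. The synthesis mean was 7.45 to 7.88 on the lymph node DC arrays, with arrays 1 and 2 of the lymph node CD64+ cells at 7.35 and 7.47, while the keratinocyte and fibroblast means are high in skin and low in lymph node and blood.

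Sterol and lipid genes outside the 28 did not follow the enzymes in lymph node DCs. Of 15 other measured sterol genes, 0 were higher and 6 lower in the steady state: the endocytic receptor Lrp1 (-3.73), the cholesteryl ester hydrolase Nceh1 (-3.33), the lipoprotein receptor Scarb1 (-2.58), Lbr (-1.43), Stard3 (-0.90) and Erlin1 (-0.72, log2 differences). After DNFB 6 were lower and Npc2, a lysosomal partner of Npc1, was higher by 0.47. Of 14 fatty acid synthesis genes, many of them SREBP targets, 0 were higher and 4 lower in the steady state: Elovl5 (-1.30), Fads2 (-1.34), Scd1 (-2.46) and Fads1 (-1.48). After DNFB Fads1 (-2.24) and Elovl5 (-0.92) were lower and 0 higher. Of 9 other LXR target genes, 0 were higher and 5 lower in the steady state. Pltp, which moves phospholipid between lipoproteins, was at 6.63 in lymph node DCs and 11.34 in dermal DCs, and Lpl, lipoprotein lipase, was at 4.27 in lymph node DCs, near background, and 8.98 in dermal DCs. Apoe, the apolipoprotein that accepts exported cholesterol, was lower by 2.13 on the log2 scale (-2.13, adjusted p = 1e-08), and Lpcat3 (-1.36) and Plin2 (-0.88) were lower as well. The same 5 genes were lower after DNFB, by between 0.74 for Apoe (-0.74) and 2.94 for Pltp (-2.94). Abcg1 and Nr1h3 were higher where Abca1 and these LXR targets were lower.

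The lymph node CD64+ cells were set against dermal P2, which is also CD64+, Ly6C+ and MHCII+, after DNFB. They carried more of most synthesis enzymes, Nr1h3 and Abcg1, and less Abca1. Of 28 genes 13 were called, against 12.6% of all genes, 12 higher (7.26% of all genes) and 1 lower (5.37% of all genes). Without array 3 of the lymph node cells 16 were called (11.9% of all genes), 14 higher and 2 lower, and all 13 were among them; the others were Fdps (0.97) and Srebf2 (0.73), higher, and Npc1 (-0.79), lower. The call count rests on few arrays: it was 7 without lymph node array 1, 7 without array 2, and 8 without P2 array 3. Of 17 enzymes, 10 were higher and 0 lower (median difference 0.82 on the log2 scale, against -0.02 for all genes). Without array 3, 11 were higher and 0 lower, with a median of 0.97. Array 3 was picked by its low synthesis mean, so larger enzyme differences without it were built in and add no support.

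Idi1 had 9.82, 9.82 and 8.34 in lymph node CD64+ cells, against 5.86, 5.48 and 6.28 in P2. Even the low array 3 was 2 log2 units above P2, and the difference was 3.45 ± 0.33 (adjusted p = 5.7e-09), or 3.94 without array 3. The second Idi1 probe set lay closer, averaging 7.20 in lymph node CD64+ cells and 5.88 in P2. Cyp51 had 8.74, 8.80 and 7.50 in lymph node CD64+ cells, against 7.12, 6.18 and 7.20 in P2. Hmgcs1 had 8.55, 8.73 and 7.30 in lymph node CD64+ cells, against 7.26, 7.29 and 7.11 in P2. In both genes array 3 came down to the edge of P2, and the differences were 1.52 ± 0.34 for Cyp51 (adjusted p = 0.0022, 1.94 without array 3) and 0.98 ± 0.29 for Hmgcs1 (adjusted p = 0.021, 1.42 without array 3). Fdft1 had 8.87, 9.06 and 7.66 in lymph node CD64+ cells, against 6.29, 7.88 and 7.06 in P2. Its arrays overlapped, with a difference of 1.46 ± 0.41 (limma adjusted p = 0.014, 1.89 without array 3). The second Fdft1 probe set averaged 7.95 in lymph node CD64+ cells and 6.12 in P2. Pmvk (1.14), Hsd17b7 (1.08), Lss (0.91), Mvk (0.82), Mvd (0.68) and Tm7sf2 (0.61) were higher too, with Hsd17b7 and Tm7sf2 overlapping. Without array 3 these differences were 1.32 for Pmvk, 1.48 for Hsd17b7, 1.12 for Lss, 0.84 for Mvk, 0.74 for Mvd and 0.80 for Tm7sf2, all called. Without lymph node array 1, Fdft1, Hmgcs1, Pmvk, Mvd, Hsd17b7 and Tm7sf2 lost their calls (adjusted p between 0.082 and 0.29). Msmo1 differed by 1.15 ± 0.49 without passing (adjusted p = 0.15, and 1.46 with adjusted p = 0.089 without array 3), with 1 P2 array at 4.59 against 7.32 and 7.20 on the others.

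Nr1h3 had 9.27, 9.11 and 9.91 in lymph node CD64+ cells, against 5.32, 5.69 and 5.64 in P2. It was 14.7-fold higher (3.88 ± 0.30, adjusted p = 6.9e-11, 3.64 without array 3), and no other array of the series exceeded 6.74. Abcg1 had 8.98, 9.06 and 9.26 in lymph node CD64+ cells, against 7.87, 7.38 and 7.60 in P2. It was apart on all arrays, by 1.48 ± 0.21 (adjusted p = 4.3e-06, 1.40 without array 3). Abca1 had 6.89, 6.63 and 7.94 in lymph node CD64+ cells, against 8.78, 8.32 and 9.11 in P2. All lymph node arrays were lower, by 1.58 on the log2 scale (-1.58 ± 0.25, adjusted p = 1.9e-05, -1.98 without array 3). Here too skin markers differed: 9 of 14 keratinocyte genes and 6 of 12 fibroblast genes were lower in lymph node cells. With both marker means as covariates 5 of the 13 calls held, those of Idi1, Mvk, Abca1, Abcg1 and Nr1h3. The share of all genes called with these covariates was not worked out. All other called enzymes lost their calls in that limma fit (adjusted p = 0.054 for Cyp51 to 0.78 for Tm7sf2). Hmgcs1 then differed by 0.56 (adjusted p = 0.61) and Fdft1 by 1.01 (adjusted p = 0.48). The keratinocyte mean was 4.53 to 4.58 in lymph node CD64+ cells and 5.95 to 7.68 in P2, and the fibroblast mean was 4.57 to 4.93 in lymph node CD64+ cells and 6.66 to 7.19 in P2. Immune cell markers differed as well. Of 7 DC markers 6 were higher and 1 lower in lymph node CD64+ cells, and their mean was 7.27 to 8.22 in these cells and 6.00 to 6.80 in P2. Flt3 averaged 9.60 in lymph node CD64+ cells and 6.77 in P2. Of 6 macrophage markers 1 was higher and 4 were lower (mean 8.50 to 9.62 in lymph node CD64+ cells and 9.41 to 10.1 in P2), and of 6 monocyte markers 5 were lower (mean 6.43 to 6.99 in lymph node CD64+ cells and 9.92 to 10.3 in P2). Without array 3, 6 of 7 DC markers were higher, and 4 of 6 macrophage and 5 of 6 monocyte markers were lower. The part of these lists in the result was not tested.

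Set against lymph node DCs after DNFB, the lymph node CD64+ cells had more Nr1h3, Abca1 and Npc1 and more of most other LXR targets. Of 28 genes 3 were called, all higher, against 4.82% of all genes: Nr1h3, Abca1 and Npc1. Without array 3 the same 3 were called, against 2.68% of all genes. Nr1h3 had 9.27, 9.11 and 9.91 in CD64+ cells, against 6.04, 5.97 and 6.01 in lymph node DCs, a difference of 3.42 ± 0.30 (adjusted p = 1.4e-09, 3.19 without array 3). Abca1 had 6.89, 6.63 and 7.94 in CD64+ cells, against 5.11, 4.97 and 4.56 in lymph node DCs. The arrays were apart, by 2.27 ± 0.25 (adjusted p = 7.9e-08, 1.88 without array 3). Npc1 was higher by 1.34 ± 0.24 (adjusted p = 0.00025, 0.98 without array 3). None of 17 synthesis enzymes was called by limma, while 8 had an unadjusted p under 0.05 and 14 of 17 were below lymph node DCs. The sizes rested on array 3 of the CD64+ cells: without it 1 enzyme had an unadjusted p under 0.05, and 14 were still below. Array 3 was picked by its low synthesis mean, so smaller enzyme gaps without it were built in too. Fdft1 differed by -1.28 ± 0.41 (adjusted p = 0.073) with array 3 and by -0.84 without it, Idi1 by -0.72 ± 0.33 with it and -0.23 without it, and Hmgcs1 by -0.79 with it and -0.34 without it. Without CD64+ array 2, 5 of the 28 were called, 3 higher and 2 lower. Abcg1 differed by -0.08 ± 0.21 with overlapping arrays (-0.17 without array 3). Of 9 other LXR targets, 7 were higher and 0 lower, with Apoe at 12.42 in CD64+ cells and 8.36 in lymph node DCs, Pltp at 10.63 in CD64+ cells and 6.82 in lymph node DCs, and Mertk, a receptor for dying cells, at 7.57 in CD64+ cells and 3.60 in lymph node DCs, below every array median. Lpl, at 7.32 in CD64+ cells and 4.27 in lymph node DCs, near background, and Plin2 (1.15) were also higher. Of 15 other sterol genes 4 were higher and 0 lower: Scarb1 (2.73), Nceh1 (2.44), the lysosomal acid lipase Lipa (2.25) and Lrp1 (1.70). Without array 3, 6 of 9 LXR targets and 4 of 15 sterol genes were higher, with Scarb1 at 2.43, Nceh1 at 2.13, Lipa at 1.92, Lrp1 at 1.55 and Plin2 at 0.89. Of 6 macrophage markers, 6 were higher in CD64+ cells (6 without array 3), and their mean was 8.50 to 9.62 in CD64+ cells and 5.34 to 5.60 in lymph node DCs. Mertk is on that list and on the LXR list, and Fcgr1, on the macrophage list, encodes the CD64 used in the sort. Of 6 monocyte markers 4 were higher (3 without array 3), with a mean of 6.43 to 6.99 in CD64+ cells and 4.16 to 4.44 in lymph node DCs. Of 7 DC markers 1 was lower and 0 higher. The part of these lists in the result was not tested.

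**Figure D5:**
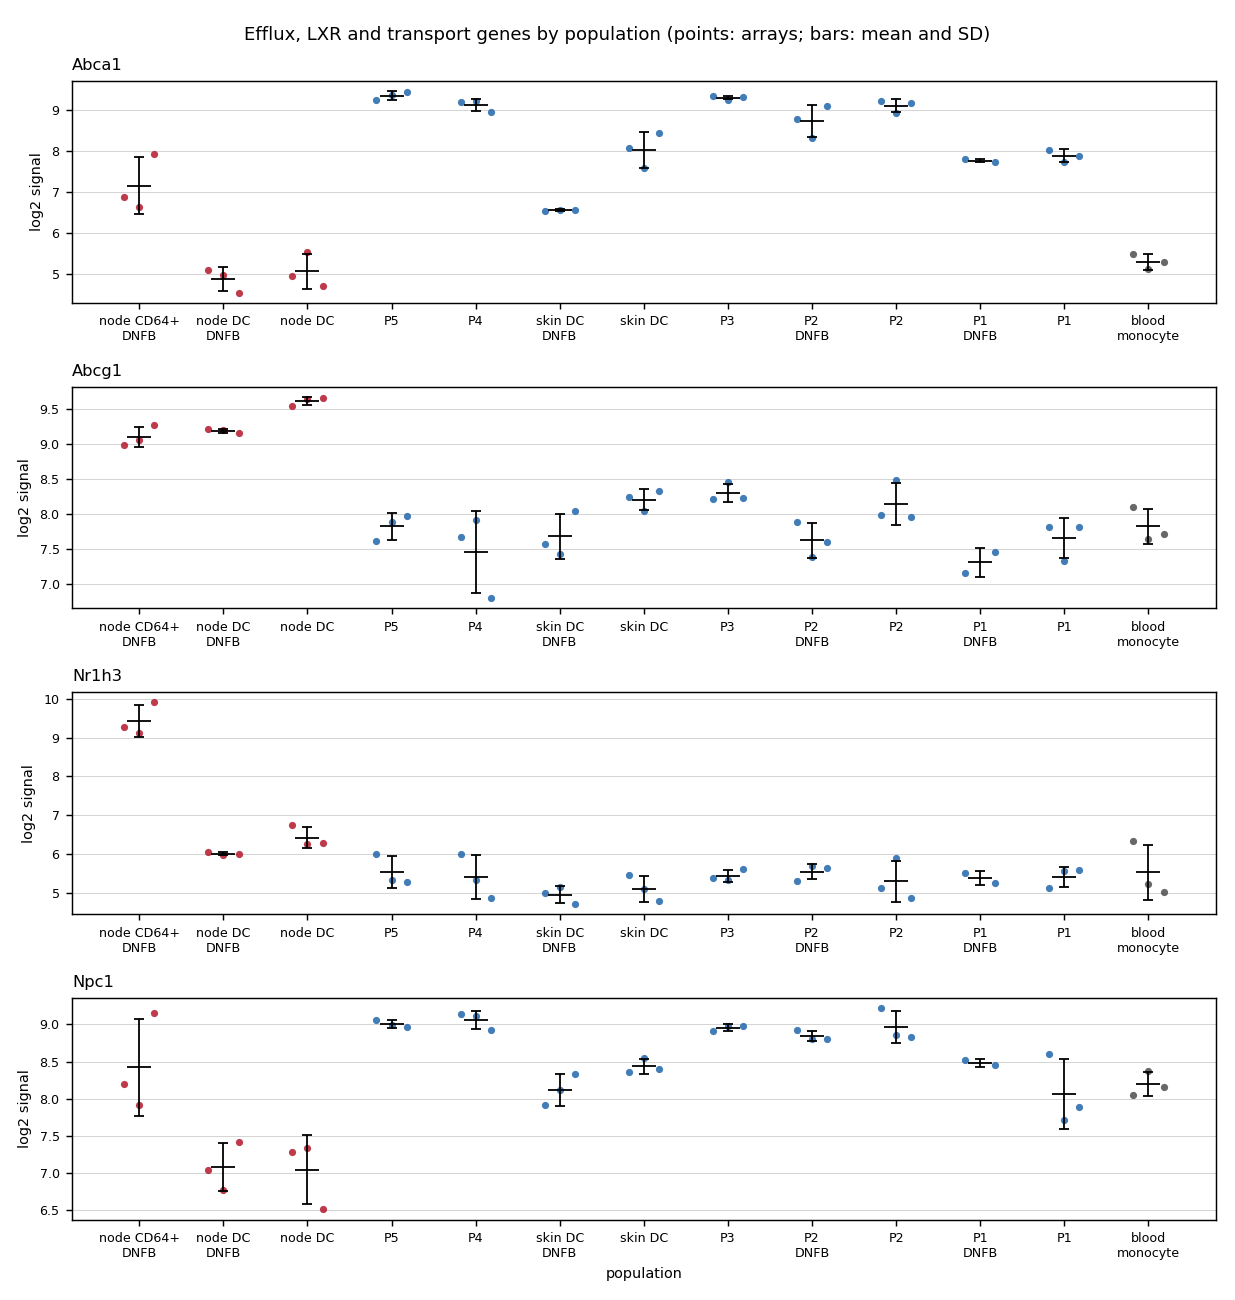
Log2 signal of Abca1, Abcg1, Nr1h3 and Npc1 (panels, top to bottom) on each array (points) by population, with mean and SD as black bars; red is lymph node, blue skin and grey blood. Abca1 and Npc1 are low in lymph node DCs, Abcg1 is high in all 3 lymph node populations, and Nr1h3 is above 9 in lymph node CD64+ cells alone.

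Along the skin stages, Abca1 was the cholesterol gene that changed most often. It had 7.89 ± 0.15 in P1 and 5.31 ± 0.19 in blood monocytes (SD, n = 3 each), and was 6.00-fold higher in P1 (2.58 ± 0.25, limma adjusted p = 1e-08). In P2 it was 9.11 ± 0.15, higher again than P1 by 1.22 ± 0.25 (adjusted p = 0.0041). From there P2, P3 (9.31 ± 0.05), P4 (9.12 ± 0.15) and P5 (9.36 ± 0.11) were neighbours that did not pass a test between them: the difference was 0.20 ± 0.25 for P3 minus P2, 0.05 ± 0.25 for P5 minus P3 and 0.23 ± 0.25 for P5 minus P4. Dermal DCs had less, 8.04 ± 0.44, than P3 (-1.27 ± 0.25, adjusted p = 0.0025), while P5 had more than dermal DCs (1.32 ± 0.25, adjusted p = 0.00055). In order, the means then ran P5, P3, P4, P2, DNFB P2, dermal DCs, P1, DNFB P1, lymph node CD64+ cells, DNFB dermal DCs, blood monocytes, steady-state lymph node DCs and DNFB lymph node DCs.

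In P1 against blood monocytes 3 of 28 genes were called, against 12.6% of all genes. Beside Abca1 they were Mylip, higher by 0.92 ± 0.24 (adjusted p = 0.0091), and Fdft1, lower by 1.26 on the log2 scale (-1.26 ± 0.41, adjusted p = 0.039). Fdft1 lost its call when any of 5 of the 6 arrays was left out (adjusted p = 0.17 without P1 array 3), and Mylip lost its call without blood array 3 (adjusted p = 0.071), which left 1 gene called. Keratinocyte genes (11 of 14) and fibroblast genes (11 of 12) were higher in P1, and with their means as covariates Abca1 alone was called; without P1 array 2, the array highest in fibroblast genes, Abca1 differed by 2.66 (adjusted p = 9.9e-08) and Mylip by 0.85 (adjusted p = 0.041). Among immune markers, 1 of 7 DC markers was higher and 1 lower in P1. For 6 macrophage markers 1 was higher and 1 lower, and 1 of 6 monocyte markers was lower. The part of tissue and of these markers was not tested. Insig1 differed by 0.67 ± 0.27 without passing. Of the other sterol genes 1 was higher (Nceh1, 1.09) and 6 were lower in P1, among them Lipa (-1.53), Lbr (-1.24), Stard3 (-1.13) and Scarb1 (-1.02).

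Fewer genes separated the later stages. In P2 against P1 2 genes were called, against 2.09% of all genes: Abca1, above, and Npc1 (0.90 ± 0.24, adjusted p = 0.037), which lost its call without P1 array 2 or 3 or any P2 array (adjusted p = 0.16 without P1 array 2). Of the other LXR targets, Pltp was higher in P2 by 2.55 and Smpdl3a was lower (-1.94). Of 19 cell cycle genes 7 were higher, of 7 DC markers 2 were higher, and of 6 monocyte markers 1 was lower in P2. In P3 against P2 Hsd17b7 alone was called (1.68 ± 0.35, adjusted p = 0.022), against 0.371% of all genes, and it lost the call without P2 array 1 or 3 or P3 array 1 or 3 (adjusted p between 0.076 and 0.11). Beside it, 6 of 12 fibroblast genes (median -2.19) and 4 of 6 monocyte markers (median -3.44) were lower in P3. The fibroblast mean was 5.92 to 6.42 in P3 and 8.28 to 8.49 in P2, and the monocyte mean was 6.54 to 6.98 in P3 and 8.78 to 9.54 in P2. In dermal DCs against P3 Abca1 alone was called, against 1.8% of all genes, and 2 genes were called without P3 array 3. Apoe was also lower in dermal DCs (-2.17), and Mertk averaged 3.84 in dermal DCs, below every array median, and 6.86 in P3. Of 7 DC markers 4 were higher and of 6 macrophage markers 4 were lower in dermal DCs. The part of the markers in these calls was not tested.

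The dermal macrophages P5 had more Abca1 and Mylip than dermal DCs, less Srebf2 and, on its brighter probe set alone, less Idi1. Of 28 genes 4 were called, against 6.52% of all genes: Abca1 and Mylip (0.86 ± 0.24, adjusted p = 0.024) were higher, and Srebf2 and Idi1 were lower. Srebf2 had 8.43, 8.03 and 8.44 in P5, against 9.21, 9.16 and 9.17 in dermal DCs. All P5 arrays were lower, by 0.88 on the log2 scale (-0.88 ± 0.24, adjusted p = 0.022). Idi1 had 5.93, 5.58 and 5.04 in P5, against 6.21, 6.57 and 7.17 in dermal DCs (-1.13 ± 0.33, adjusted p = 0.036). The groups did not overlap, yet the mean of both Idi1 probe sets differed by -0.50 (adjusted p = 0.47). The second probe set showed no fall, averaging 5.90 in P5 and 5.77 in dermal DCs. Abca1 alone kept its call whichever array was left out: 1 gene was called without P5 array 2 or dermal DC array 2, and 2 without dermal DC array 1 or 3. Apoe (2.47), Smpdl3a (1.27) and Plin2 (1.16), all on the other LXR list, were higher in P5. Mertk averaged 7.58 in P5 and 3.84 in dermal DCs, and Ch25h, which makes an oxysterol, averaged 6.13 in P5 and 3.74 in dermal DCs. Both passed the test, but both were below every array median in dermal DCs, so the sizes of these differences are not given. Of 6 macrophage markers 6 were higher in P5, with a mean of 9.92 to 10.5 in P5 and 7.98 to 8.34 in dermal DCs. Of 7 DC markers 4 were lower (mean 5.90 to 6.10 in P5 and 7.18 to 7.49 in dermal DCs), as were 11 of 19 cell cycle genes (median -1.17, mean 5.66 to 6.19 in P5 and 6.78 to 7.14 in dermal DCs). Their part in the result was not tested. Against P3, 0 genes were called by limma (4 at an unadjusted p under 0.05; 1.25% of all genes called), and P5 against P4 gave 0 as well (1 at an unadjusted p under 0.05; 0.492% of all genes called). Mylip was highest in P4, at 8.85 ± 0.30, with 8.46 ± 0.15 in P5.

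DNFB itself changed few cholesterol genes within a population. In dermal DCs 3 of 28 were called, against 4.16% of all genes. Abca1 had 6.55, 6.58 and 6.58 after DNFB, against 8.07, 7.58 and 8.45 in the steady state. The DNFB arrays were all lower, by 1.47 on the log2 scale (-1.47 ± 0.25, adjusted p = 0.00025). Mylip was lower too (-0.85 ± 0.24, adjusted p = 0.035), a call lost when steady-state array 2 or 3 or DNFB array 1 or 2 was left out (adjusted p = 0.062 to 0.19). Pmvk had 8.18, 7.54 and 8.44 after DNFB, against 6.80, 5.93 and 6.38 in the steady state. It was higher on all DNFB arrays, by 1.69 ± 0.36 (adjusted p = 0.0040). Of other LXR targets Pltp (-1.58), Apoe (-1.34) and Lpl (-2.18) were lower after DNFB, and so were Npc2 (-0.96), Lrp1 (-1.74) and Nceh1 (-2.10). Fcgr1 was higher in these DNFB cells, as given above, and 2 of 14 keratinocyte and 2 of 12 fibroblast genes were lower. Of 19 cell cycle genes 6 were lower after DNFB, with a mean of 6.28 to 6.52 after DNFB and 6.78 to 7.14 in the steady state. Of 7 DC markers 4 were higher (mean 8.29 to 8.53 after DNFB and 7.18 to 7.49 in the steady state). Of 6 monocyte markers 2 were higher and 1 lower, with Plac8 at 10.28 after DNFB and 5.51 in the steady state, and of 6 macrophage markers 1 was higher and 1 lower. The part of these in the result was not tested.

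In P2 Scap alone was called, lower after DNFB (-0.79 ± 0.18, adjusted p = 0.017), against 2.02% of all genes. It lost the call without steady-state array 1 or 2 or DNFB array 2 (adjusted p = 0.063 to 0.15), and 3 of 14 keratinocyte, 2 of 12 fibroblast and 3 of 19 cell cycle genes were lower and 2 of 6 monocyte markers higher beside it. In lymph node DCs Lss alone was called (-0.95 ± 0.22, adjusted p = 0.021), against 1.34% of all genes. Lss had 4.97, 4.76 and 5.73 after DNFB, against 5.66, 6.53 and 6.12 in the steady state. The arrays overlapped, and the call was lost without DNFB array 1 or 2 or steady-state array 2 or 3 (adjusted p = 0.073 to 0.20). In P1, with 2 DNFB arrays, 0 were called by limma (2 at an unadjusted p under 0.05; 0.637% of all genes called).

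Whether DNFB acted differently on lymph node DCs and dermal DCs was tested as the difference of the DNFB effects. None of 28 genes passed in limma (5 at an unadjusted p under 0.05; 1.31% of all genes called). Abca1 came closest, with a DNFB effect in lymph node DCs of -0.19 ± 0.25 and in dermal DCs of -1.47 ± 0.25, a difference of 1.28 ± 0.35 (adjusted p = 0.063). Pmvk differed by -1.72 ± 0.51 (adjusted p = 0.10). Leaving out lymph node DNFB array 3, lymph node steady-state array 2 or dermal steady-state array 2 let 1 gene pass. The DNFB effect of dermal DCs minus that of P2, added after the effects were seen, gave 0 of 28 (3 at an unadjusted p under 0.05; 0.251% of all genes called), although Apoe (-1.56, adjusted p = 0.018) and Npc2 (-0.76, adjusted p = 0.025) passed.

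Across the 15 group differences and these 2 differences of effects, 20 of 28 genes were called at least once. Nsdhl, Ebp, Sc5d, Dhcr7, Srebf1, Insig1, Insig2 and Stard4 were the 8 that never were. The share of all genes called at least once was not worked out, so the 20 cannot be set against it. Over the 13 population means, several of which share a tissue, the Pearson correlation with the mean of the 17 enzymes was 0.92 for Stard4, 0.88 for Abcg1 and 0.71 for Srebf2. It was -0.82 for Npc1 and -0.75 for Abca1. These values describe the order of the populations. The 10 genes outside the 28 with the most similar pattern were Spr, Gpr52, Ift57, Lpar3, Tmtc2, Triobp, Strip2, Dao, Spint2 and Eif4b, with correlations of 0.975 to 0.987 over the 13 means. Spr, sepiapterin reductase, led them, with 8.98 and 8.99 in lymph node DCs (DNFB and steady state), 8.52 in lymph node CD64+ cells and 6.78 to 7.59 in dermal and blood populations.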

How the data were processed

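Affymetrix Gene 1.0 ST arrays measured RNA of 5000 to 10000 sorted cells (5 to 20 ng, amplified, per the labels' protocols) in 38 samples of 13 groups, taken from titles and characteristics. The deposited values are log2 signals per probe set (34760), made by the authors with RMA and affy, per the submitters' processing notes, versions not given. Each array is its own column. Intensities were not read, so background correction is the authors', and precision is limited by the number of arrays. The 3 chip batches the series mentions are not given per array, so no batch term was fitted.

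Probe sets with 1 symbol (21640 of them, 21553 matched to RefSeq) were kept, those with several (1321) or none (11799) left out, and where a gene had several probe sets (954 genes) the brightest on average stood for it. A mean per group was fitted to 19937 genes in limma 3.58.1 (R 4.3.3, and version 1.17.8 of data.table), with 25 residual and 3.13 prior degrees of freedom, and Benjamini-Hochberg adjustment over all genes per comparison, threshold 0.05. A permutation of 3 against 3 arrays could not pass, so p-values rest on the variance pooled over all arrays. The test was checked on simulated data. Figures used Python 3.11.15, numpy 2.4.6, pandas 2.3.3 and matplotlib 3.10.9. The genes and lists were chosen with earlier results of these data known. Values on every array are given for 4 enzymes, 3 regulators and 3 efflux genes. These were the genes of each role with the largest range of population means in these same data. They are therefore not a representative choice, and their differences are among the wider ones. Called genes are given for each comparison, and up to 5 genes of each further list by smallest adjusted p. Other genes given for single values, such as Lpl beside Lss or Spr, were picked after their values were seen. Alternatives tried were quantile normalization, median centring, a filter at the 40th percentile of signal, the mean of probe sets, marker covariates, fits on the compared groups alone, replicate blocks and leaving out each array.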

Additional observations from a re-analysis of the deposited data

How the results depend on the processing

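None of 63 called gene differences changed sign under the alternatives run. Of these, the calls kept numbered 60 under quantile normalization, 60 under median centring, 63 with low values left out (14841 genes, all 28 cholesterol genes), 62 with the mean of probe sets, 41 with keratinocyte and fibroblast covariates and 44 when only the compared groups entered the fit. Over all single-array omissions 302 of 378 were kept. For the settings listed next, shares of all genes called were not worked out. Counts of called cholesterol genes moved by over 1.5 times as follows. With quantile normalization lymph node CD64+ cells against lymph node DCs gave 5. With median centring the difference of DNFB effects between lymph node and dermal DCs gave 1. With low values left out dermal DCs against P3 gave 2. With covariates P1 against blood gave 1, P3 against P2 0, dermal DCs against P3 2, P5 against dermal DCs 2, lymph node CD64+ cells against P2 5 and DNFB in P2 0. With the compared groups only, which leaves fewer arrays for the variance, P1 against blood gave 1, P2 against P1 1, P3 against P2 0, dermal DCs against P3 0, lymph node CD64+ cells against P2 5, DNFB in P2 0, DNFB in lymph node DCs 0 and the difference of DNFB effects 1. For the other moves the cause was not tested.

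Leaving out 1 array at a time, counts ranged over 1 to 4 for P1 against blood, 1 to 2 for P2 against P1, 0 to 1 for P3 against P2, 1 to 2 for dermal DCs against P3, 1 to 3 for P5 against dermal DCs, 13 to 15 for lymph node against dermal DCs in the steady state and 14 to 15 after DNFB, 7 to 16 for lymph node CD64+ cells against P2, 3 to 5 against lymph node DCs, 2 to 3 for DNFB in dermal DCs, 0 to 1 for DNFB in P2 and in lymph node DCs, and 0 to 1 for the difference of their DNFB effects. Counts over all populations ranged over 21 to 24.

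With the replicate number as a block, all 63 calls were kept and 15, 16 and 13 genes were called for lymph node against dermal DCs in the steady state, after DNFB, and for lymph node CD64+ cells against P2. Samples with the same number did not deviate together (median correlation 0.0026 over 222 pairs), so the numbers were not taken as pairs. Signal near background limits Lss, Tm7sf2 and Hsd17b7 in skin.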
